A study of Homo sapiens with 18 samples.

Results

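Transcripts of 49 interferon-stimulated genes were followed in 2 breast cancer cell lines treated with inhibitors of the kinases CDK4 and CDK6. The genes were chosen by name, as well-known targets of interferon signalling and their controlling factors, and all 49 were found among the 60656 gene rows of the count table. The study asked what CDK4/6 inhibition does to transcription in oestrogen receptor-positive breast cancer cells through the retinoblastoma protein (Rb), which both kinases phosphorylate. CAMA-1 and ZR-75-1, established oestrogen receptor-positive lines, were used as parental cells of wild-type genotype. Each line received 500 nM abemaciclib, 500 nM palbociclib or the solvent DMSO for 5 days, giving 6 groups of 3 libraries. QuantSeq libraries, which read mainly the 3′ end of each polyadenylated transcript, were sequenced and counted per gene. Libraries of a group were described as independent biological replicates in the reporting of the study, and every group is a sample of 1 established line, so the spread covers repeat cultures and not different tumours.

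Interferons are secreted proteins that cells release on sensing foreign or misplaced nucleic acid. They bind receptors coupled to the kinases JAK1, JAK2 and TYK2, which activate transcription factors. Type I and III interferons act mainly through a complex that holds STAT2 and IRF9 and binds interferon-stimulated response elements in promoters, and IRF1 binds closely related sites. The induced genes include RNA sensors, enzymes that block or degrade viral RNA, membrane proteins that restrict viruses, the ubiquitin-like protein ISG15 and its conjugation enzymes, and the transcription factors of the pathway itself.

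Library totals ran from 2308442 to 4146549 counts. The values below are normalised read counts in CPM, in which each count is divided by the scaled total of its library. A gene with 3 counts, taken as the floor of detection, reads 0.723 to 1.30 CPM before scaling, depending on the library. All 7 luminal epithelial markers, among them ESR1, GATA3 and KRT8, had at least 120 counts in every library. Of 5 immune markers, 3 had at most 3 counts in all libraries, with LYZ reaching 38 counts and CD14 reaching 10, and of 5 stromal and endothelial markers only COL1A1 passed 3 counts, reaching 108. Mitochondrial transcripts took 14.8 to 16.6% of counts with DMSO in CAMA-1, 23.4 to 26.1% with abemaciclib and 22.9 to 24.9% with palbociclib, and 17.3 to 22.6% over all ZR-75-1 libraries. With mitochondrial genes left out, the numbers of members called in CAMA-1 were again 13 higher and 1 lower with abemaciclib and 12 and 1 with palbociclib. In such bulk RNA, fewer cells with a transcript and less transcript per cell cannot be told apart. Whether reads were counted by strand was not stated, so genes that overlap on opposite strands, and families of similar sequence, are less certain.

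Stretches of promoter are shown for 7 members that span the outcomes below: a gene that rose in both lines, genes that rose in CAMA-1, a gene that fell, and ISG15, which did not pass the test. They come from RefSeq on GRCh38.p14, within a window of 250 bases before and 50 after each annotated start, read 5′ to 3′ along the strand of the gene. Capitals mark matches to GAAA, any 2 bases and GAAA again, the core of the interferon-stimulated response element, on either strand, and neighbouring matches may overlap. IFI6 (chr1:27672266-27672358, minus strand) holds 3 matches, and IFIH1 (chr2:162318818-162318853, minus) 2 of its 3. DTX3L (chr3:122564322-122564341, plus) has 1 match beside its start, PARP14 (chr3:122680800-122680829, plus) 1, and BST2 (chr19:17405735-17405770, minus) 2. OAS3 (chr12:112938321-112938350, plus) shows 1 of 2, and ISG15 (chr1:1013374-1013409, plus) has 2.
IFI6: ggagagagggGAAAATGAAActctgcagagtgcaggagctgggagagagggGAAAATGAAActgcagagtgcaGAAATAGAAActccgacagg
IFIH1: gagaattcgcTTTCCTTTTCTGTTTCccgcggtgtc
DTX3L: ccagggaagcGAAACTGAAA
PARP14: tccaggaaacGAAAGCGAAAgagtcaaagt
BST2: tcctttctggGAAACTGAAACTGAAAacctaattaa
OAS3: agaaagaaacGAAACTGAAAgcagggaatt
ISG15: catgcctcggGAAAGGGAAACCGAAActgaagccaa

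Of the 41 members with an entry in the promoter table, 27 (65.9%) held the motif in at least 1 window, against 3.57% of all 35116 windows and 4.38% of all 27305 symbols. The motif did not separate members by their response. It was present in 9 of the 13 members with an entry that were higher with a drug in CAMA-1, in 6 of the 10 that were tested there and not higher, and in 12 of the 18 that were too low to test. The DTX3L and PARP9 windows face each other and hold the same motif bases (chr3:122564332-122564341). These are matches of letters and were not tested as binding sites.

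Many members had few or no counts. At most 3 counts were found in all 18 libraries for 11 members, namely CMPK2, IFI16, IFI44, IFI44L, IFIT3, IFITM1, OASL, RSAD2, SAMD9L, TRIM22 and XAF1, and TRIM22 had none. The filter on low counts left 26 members to test in CAMA-1 and 21 in ZR-75-1, of which 19 were tested in both lines and 21 in neither. DDX60, IFI35, IFITM3, IRF7, IRF9, ISG15 and UBE2L6 were tested in CAMA-1 only, and OAS2 and SAMD9 in ZR-75-1 only. The heat map of all members shows the contrast between abundant genes such as IFITM2, BST2, TRIM25 and EIF2AK2 and the many genes near 0.

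**Figure D1:**
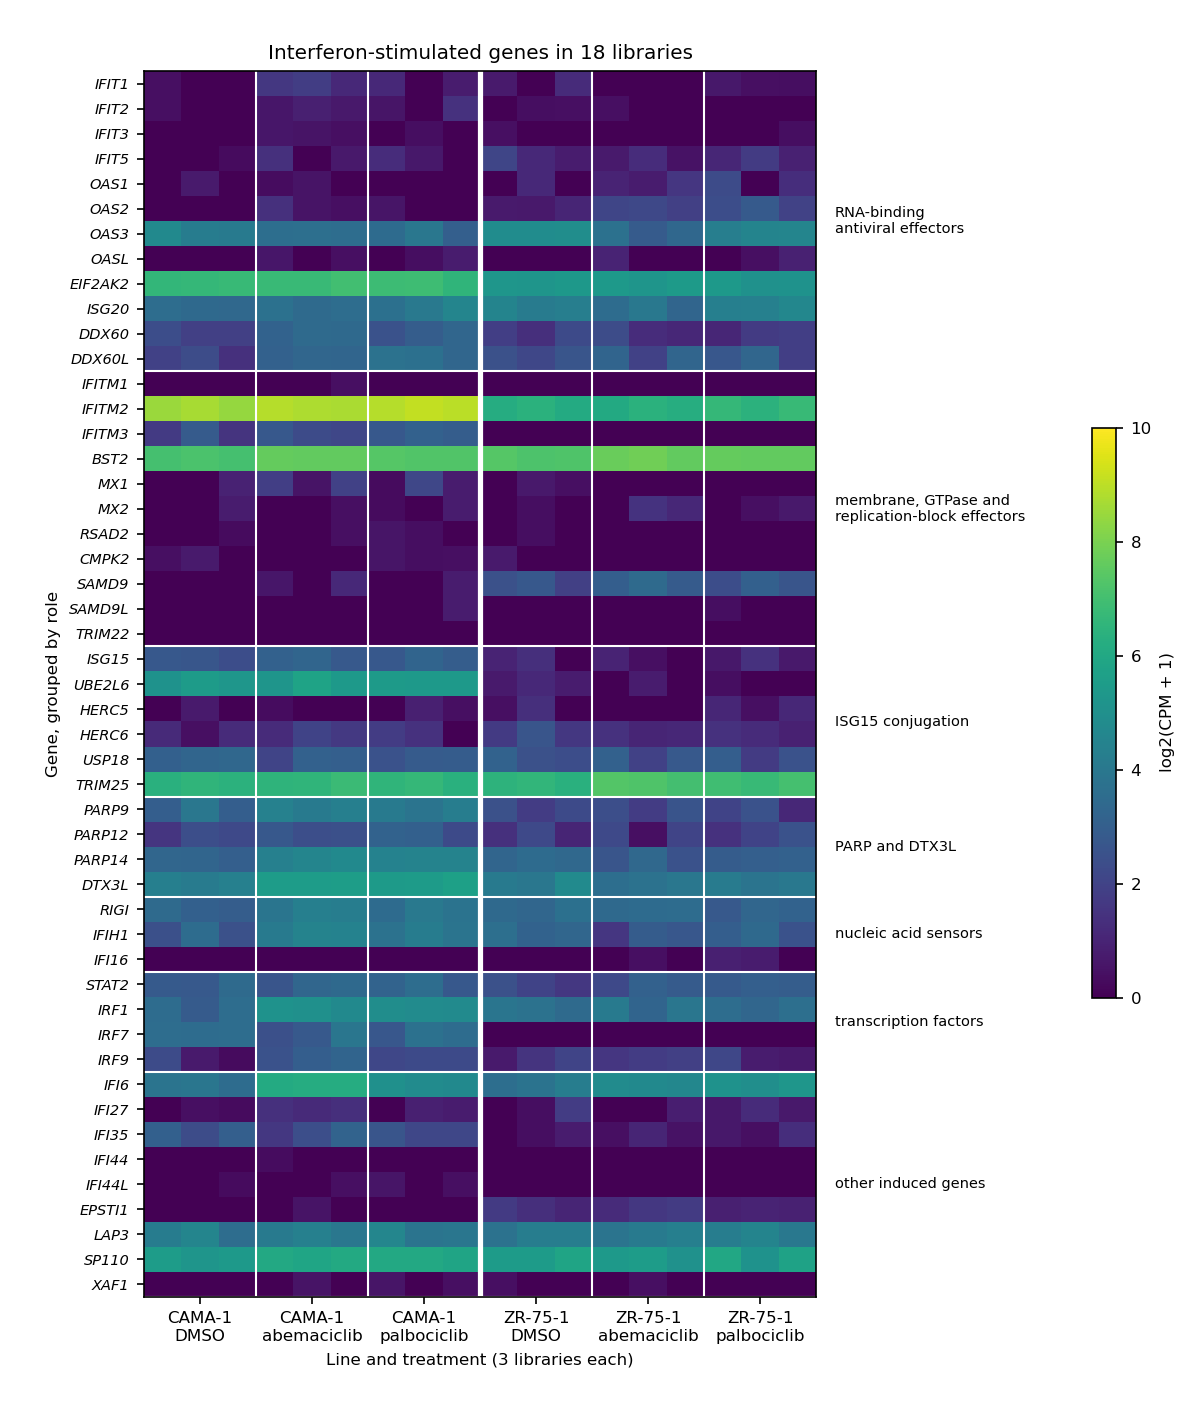
Level of each of the 49 members in each of the 18 libraries, as log2(CPM + 1), with genes grouped by role and libraries by line and treatment (3 libraries each). IFITM2 is the brightest row in CAMA-1, IFITM3 and IRF7 are at 0 in all ZR-75-1 libraries, and 11 rows stay at or under 3 counts throughout.

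Summed over all members, the level in CAMA-1 was 948 ± 56.1 CPM (SD, n = 3) with DMSO, 1301 ± 15.8 with abemaciclib and 1248 ± 51.9 with palbociclib. In ZR-75-1 it was 581 ± 3.81, 666 ± 32.9 and 683 ± 36.6 CPM. IFITM2 alone made up 32.5 to 41.1% of this sum in CAMA-1 and 9.79 to 15.0% in ZR-75-1. Without IFITM2, the sums in CAMA-1 were 574 ± 19.9, 856 ± 34.0 and 746 ± 33.1 CPM.

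In CAMA-1, more members rose than fell with each drug. With abemaciclib, 13 of the 26 members tested were higher at an adjusted p under 0.05 and 1 was lower, where 20.3% and 20.1% of the 11053 genes tested were higher and lower. With palbociclib, 12 were higher and 1 lower, against 18.4% and 18.7% of all genes. The median log2 fold change of the members tested was 0.52 with abemaciclib and 0.62 with palbociclib, beside 0.01 and 0.00 over all genes. With no filter on low counts the medians of the members were 0.98 and 0.82. Both comparisons use the same DMSO libraries. Libraries of the treated and DMSO groups did not overlap for 15 members higher and 1 lower with abemaciclib, where 25.8% and 22.4% of all genes were so, and for 13 and 2 with palbociclib (24.9% and 21.5%). DTX3L, IFI6, IFIH1, IFITM2, IRF1, PARP14, PARP9, RIGI and SP110 were higher with each drug. DDX60 and DDX60L are also counted as higher with each drug, and IRF9 with abemaciclib. However, DDX60, DDX60L and IRF9 passed the filter on low counts only with their treated libraries, so their tests are not given as support. The numbers of members higher and the medians above include these genes. The other members higher were BST2, with abemaciclib only, and ISG20, with palbociclib only.

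In ZR-75-1, members called went both ways with abemaciclib and were higher with palbociclib. With abemaciclib, 4 of 21 members tested were higher and 4 lower, where 17.9% and 18.3% of the 11017 genes tested were higher and lower. With palbociclib, 5 were higher and 0 lower, against 14.5% and 13.4% of all genes. For the 0 lower, edgeR had 1 member at an unadjusted p under 0.05, and DESeq2 also called 0. The median log2 fold change of the members was 0.07 with abemaciclib and 0.11 with palbociclib, beside -0.00 and -0.01 over all genes, and it was -0.00 and -0.08 with no filter on low counts. BST2, IFI6 and TRIM25 were higher with each drug. OAS2 is also counted as higher with each drug, but it passed the filter on low counts only through its treated libraries, and without it 3 and 4 members were higher. Groups did not overlap for 5 members higher and 4 lower with abemaciclib, where 22.9% and 22.8% of all genes were so, and for 6 and 3 with palbociclib (19.6% and 19.5%). The shares of members called with abemaciclib were near those of all genes. The bars of test outcomes show the same counts for each comparison.

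**Figure D2:**
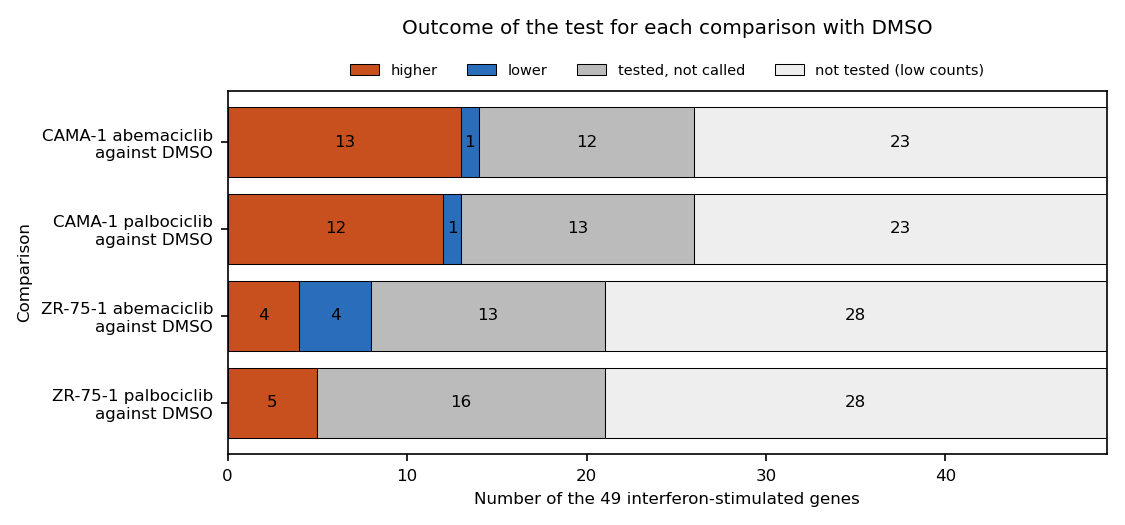
Number of the 49 members (horizontal axis) that were higher, lower, tested but not called, or not tested because of low counts, for each drug against DMSO in each line. In CAMA-1, 13 and 12 members were higher with abemaciclib and palbociclib, and in ZR-75-1 4 and 5 were. The counts hold genes that passed the filter on low counts only through treated libraries (DDX60, DDX60L and IRF9 in CAMA-1, OAS2 in ZR-75-1).

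IFI6, a mitochondrial protein that protects cells from apoptosis, had the largest change among the members tested with abemaciclib in CAMA-1 and was higher with both drugs in both lines. IFI6 in CAMA-1 stood at 13.4, 14.4 and 10.5 CPM with DMSO, at 68.3, 72.7 and 71.6 with abemaciclib and at 31.2, 27.2 and 26.1 with palbociclib. IFI6 in ZR-75-1 stood at 11.1, 12.8 and 17.9 CPM with DMSO, at 27.4, 25.6 and 24.0 with abemaciclib and at 33.0, 30.1 and 36.7 with palbociclib. No treated library overlapped the DMSO libraries of its line, and the order of the drugs was opposite in the 2 lines. IFI6 had in CAMA-1 a log2 fold change of 2.46 (SE 0.16, adjusted p = 4.1e-17) with abemaciclib and 1.14 (SE 0.17, adjusted p = 5.4e-07) with palbociclib. For ZR-75-1, IFI6 gave 0.88 (SE 0.20, adjusted p = 0.00031) with abemaciclib and 1.26 (SE 0.19, adjusted p = 4.4e-07) with palbociclib. IFI6 lies on chromosome 1 (27666064 to 27672212, minus strand, GRCh38) and shares exonic bases on its strand with LINC02574, so reads there could belong to either.

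SP110, a nuclear body protein, rose in CAMA-1, by a log2 fold change of 0.59 for abemaciclib (adjusted p = 0.00014) and 0.57 for palbociclib (adjusted p = 0.00018). In ZR-75-1 its log2 fold changes of -0.29 and 0.06 did not pass the test, and its exons overlap those of SP140 on the opposite strand. LAP3, an aminopeptidase, had log2 fold changes between -0.03 and 0.17 in all 4 comparisons with DMSO, none called. IFI35 was at 6.14 ± 1.85 CPM with DMSO in CAMA-1 and was not called with either drug. IFI27, a small mitochondrial and nuclear membrane protein, had too few counts to be tested in either line. It read 0, 0.334 and 0.229 CPM with DMSO in CAMA-1, 1.58, 1.28 and 1.56 with abemaciclib and 0, 0.851 and 0.678 with palbociclib. The abemaciclib libraries lay above the DMSO libraries, at only 3 to 6 counts each. In ZR-75-1 IFI27 read 0, 0.305 and 2.41 CPM with DMSO, 0, 0 and 0.786 with abemaciclib and 0.559, 1.35 and 0.587 with palbociclib, overlapping throughout.

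The cytosolic RNA sensors IFIH1 and RIGI rose in CAMA-1 with both drugs, and in ZR-75-1 a fall of IFIH1 with abemaciclib was the only call for them. IFIH1, which encodes the double-stranded RNA sensor MDA5, was at 4.46, 10.7 and 4.58 CPM with DMSO in CAMA-1, at 16.6, 21.4 and 20.6 with abemaciclib and at 12.7, 17.3 and 13.2 with palbociclib. IFIH1 in ZR-75-1 was at 11.7, 7.94 and 8.95 CPM with DMSO, at 1.98, 6.58 and 5.50 with abemaciclib and at 6.99, 9.80 and 4.69 with palbociclib. Every treated CAMA-1 library lay above the DMSO libraries, while in ZR-75-1 the abemaciclib libraries lay below them and the palbociclib libraries overlapped them. IFIH1 had in CAMA-1 a log2 fold change of 1.57 (SE 0.27, adjusted p = 8.6e-06) with abemaciclib and 1.14 (SE 0.28, adjusted p = 0.00099) with palbociclib. For ZR-75-1, IFIH1 gave -1.04 (SE 0.38, adjusted p = 0.024) with abemaciclib and -0.43 (SE 0.34, adjusted p = 0.39) with palbociclib. The fall in ZR-75-1 rested on single libraries, since it was -0.86 (adjusted p = 0.13) without DMSO replicate 1 and -0.66 (adjusted p = 0.21) without abemaciclib replicate 1.

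RIGI, which encodes the sensor of RNA carrying a 5′ triphosphate, was at 9.87, 7.34 and 6.64 CPM with DMSO in CAMA-1, at 13.7, 18.8 and 18.1 with abemaciclib and at 10.3, 15.6 and 12.9 with palbociclib. The treated libraries lay above the DMSO libraries, the lowest palbociclib library by a small margin. RIGI gave a log2 fold change of 1.05 (SE 0.25, adjusted p = 0.00085) with abemaciclib and 0.68 (SE 0.26, adjusted p = 0.036) with palbociclib. The palbociclib call was lost in 6 of 17 alternative settings, among them DESeq2 (adjusted p = 0.066) and the omission of DMSO replicates 2 or 3 (log2 fold change 0.64 and 0.54) or palbociclib replicates 2 or 3 (0.51 and 0.68). In ZR-75-1 the log2 fold changes were -0.01 and -0.45, neither called. RIGI shares exonic bases with an unnamed gene on its strand. IFI16, a sensor of DNA, stayed at or under 3 counts in every library.

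Among the transcription factors, IRF1 rose in CAMA-1 with both drugs. IRF9 is counted as higher there with abemaciclib, but it passed the filter on low counts only through its treated libraries. STAT2 was not called in either line. IRF7 was not called in CAMA-1 and had 0 counts in ZR-75-1, where it was not tested. IRF1 was at 10.5, 6.34 and 10.8 CPM with DMSO in CAMA-1, at 33.5, 31.2 and 25.5 with abemaciclib and at 29.3, 27.5 and 26.4 with palbociclib. IRF1 in ZR-75-1 was at 13.7, 12.5 and 9.98 CPM with DMSO, at 16.5, 8.31 and 14.2 with abemaciclib and at 10.9, 8.78 and 11.4 with palbociclib. The groups were far apart in CAMA-1 and overlapped in ZR-75-1. IRF1 had in CAMA-1 a log2 fold change of 1.65 (SE 0.20, adjusted p = 6.3e-09) with abemaciclib and 1.54 (SE 0.20, adjusted p = 3.4e-08) with palbociclib, and in ZR-75-1 it was 0.10 (SE 0.27, adjusted p = 0.82) and -0.22 (SE 0.27, adjusted p = 0.60). Exons of IRF1 overlap those of IRF1-AS1 on the opposite strand.

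IRF9, the DNA-binding partner of STAT2, was at 3.82, 0.667 and 0.229 CPM with DMSO in CAMA-1, at 4.75, 6.84 and 8.41 with abemaciclib and at 3.36, 3.69 and 3.73 with palbociclib. DMSO replicate 1 stood above the other DMSO libraries and above all palbociclib libraries, but below all abemaciclib libraries. Since IRF9 passed the filter on low counts only through its treated libraries, its test is not given as support. Its log2 fold change was 2.12 (SE 0.53) with abemaciclib, which was called, and 1.24 (SE 0.57) with palbociclib, which was not. Without DMSO replicate 1 these values were 3.86 and 2.98, both called, so that library decided the palbociclib call. Without DMSO replicate 3 the abemaciclib value was 1.49. In ZR-75-1 IRF9 was too low to test, at 0.652, 1.83 and 3.10 CPM with DMSO, 1.98, 2.42 and 2.75 with abemaciclib and 3.35, 0.676 and 0.587 with palbociclib. IRF9 shares exonic bases with unnamed genes on both strands.

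STAT2, which carries the signal of type I and III interferons to the nucleus, was at 6.05, 6.01 and 9.85 CPM with DMSO in CAMA-1, at 5.28, 8.98 and 9.65 with abemaciclib and at 8.16, 10.8 and 5.76 with palbociclib. STAT2 in ZR-75-1 was at 4.57, 3.05 and 2.06 CPM with DMSO, at 3.64, 7.61 and 6.29 with abemaciclib and at 6.15, 7.09 and 6.75 with palbociclib. Only the ZR-75-1 palbociclib group lay clear of DMSO, with a log2 fold change of 1.02 (SE 0.42), not called. Without DMSO replicate 1 it was 1.34 and called. In ZR-75-1, STAT2 passed the filter on low counts only through its treated libraries, so its test there is not given as support. IRF7, a factor that amplifies interferon production, was at 10.8, 10.7 and 10.8 CPM with DMSO in CAMA-1, at 4.49, 5.99 and 14.3 with abemaciclib and at 5.52, 12.2 and 10.5 with palbociclib. Abemaciclib replicate 3 lay above DMSO and the others below it, with a log2 fold change of -0.41 (SE 0.33, adjusted p = 0.34) that became -1.10 (adjusted p = 0.017) without that library. IRF7 had 0 counts in every ZR-75-1 library.

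DTX3L, PARP9 and PARP14 rose in CAMA-1 with both drugs, while PARP12 was not called except without palbociclib replicate 3 (1.17, adjusted p = 0.026, against 0.92 and 0.067 with it). DTX3L, an E3 ubiquitin ligase that pairs with PARP9, was at 19.1, 17.0 and 19.5 CPM with DMSO in CAMA-1, at 45.1, 45.3 and 45.8 with abemaciclib and at 43.2, 44.0 and 50.5 with palbociclib. DTX3L in ZR-75-1 was at 16.0, 14.7 and 26.8 CPM with DMSO, at 11.2, 12.5 and 14.5 with abemaciclib and at 17.0, 13.5 and 15.0 with palbociclib. Both drugs gave much the same level in CAMA-1, and the ZR-75-1 DMSO group was spread by replicate 3. DTX3L had in CAMA-1 a log2 fold change of 1.25 (SE 0.15, adjusted p = 3.1e-09) with abemaciclib and 1.26 (SE 0.15, adjusted p = 2.1e-09) with palbociclib. For ZR-75-1, DTX3L gave -0.59 (SE 0.24, adjusted p = 0.046) with abemaciclib and -0.33 (SE 0.23, adjusted p = 0.31) with palbociclib. The fall in ZR-75-1 was lost in 8 of 17 alternative settings, and was -0.28 (adjusted p = 0.46) without DMSO replicate 3.

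PARP14, a mono-ADP-ribosyltransferase, was at 8.91, 8.68 and 7.10 CPM with DMSO in CAMA-1, at 19.3, 22.2 and 26.2 with abemaciclib and at 20.4, 21.3 and 21.0 with palbociclib. No treated library overlapped DMSO. PARP14 gave a log2 fold change of 1.43 with abemaciclib (SE 0.22, adjusted p = 8.1e-07) and 1.32 with palbociclib (SE 0.22, adjusted p = 3.5e-06), against -0.54 and -0.42, not called, in ZR-75-1. PARP9, the partner of DTX3L, was at 7.00, 14.7 and 6.87 CPM with DMSO in CAMA-1, at 20.3, 16.3 and 19.0 with abemaciclib and at 16.3, 13.3 and 18.0 with palbociclib. DMSO replicate 2 was the highest control and overlapped the palbociclib group. PARP9 gave a log2 fold change of 0.97 (SE 0.25, adjusted p = 0.0016) with abemaciclib and 0.74 (SE 0.25, adjusted p = 0.018) with palbociclib, and the latter call was lost without DMSO replicate 1 or 3 (0.57 and 0.51) or palbociclib replicate 1 or 3 (0.71 and 0.65). DTX3L (chromosome 3, 122564338 to 122575203, plus strand) and PARP9 (122527924 to 122564577, minus strand) have exons that overlap on opposite strands, so their reads may not be fully separate.

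Among RNA-binding effectors, the DDX60 helicases were counted as higher in CAMA-1, and OAS3 fell in both lines with abemaciclib and in CAMA-1 with palbociclib. DDX60, a helicase linked to RIG-I signalling, was at 4.14, 2.67 and 2.75 CPM with DMSO in CAMA-1, at 7.92, 9.84 and 9.65 with abemaciclib and at 4.80, 6.81 and 8.81 with palbociclib. Its relative DDX60L was at 2.86, 4.00 and 1.60 CPM with DMSO, at 7.65, 8.98 and 8.72 with abemaciclib and at 12.5, 11.9 and 8.81 with palbociclib. Treated and control libraries of both genes were apart, although DDX60 in palbociclib replicate 1 was close to DMSO replicate 1. Both genes passed the filter on low counts only with their treated libraries, so their tests are not given as support. DDX60 had a log2 fold change of 1.48 (SE 0.36) with abemaciclib and 1.04 (SE 0.37) with palbociclib. The palbociclib call of DDX60 was lost without DMSO replicate 2 or 3 (0.95 and 0.92) or palbociclib replicate 2 or 3 (1.03 and 0.83). DDX60L had a log2 fold change of 1.59 (SE 0.37) with abemaciclib and 2.00 (SE 0.35) with palbociclib, and it was not called in ZR-75-1 (0.58 and 0.36).

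OAS3, an oligoadenylate synthetase that activates RNase L, was at 25.8, 17.4 and 16.5 CPM with DMSO in CAMA-1, at 11.3, 11.5 and 10.9 with abemaciclib and at 10.3, 14.5 and 7.12 with palbociclib. OAS3 in ZR-75-1 was at 28.0, 28.1 and 29.2 CPM with DMSO, at 12.2, 6.23 and 9.04 with abemaciclib and at 18.2, 21.6 and 22.3 with palbociclib. Every treated library lay below the DMSO libraries of its line. OAS3 had in CAMA-1 a log2 fold change of -0.84 (SE 0.24, adjusted p = 0.0045) with abemaciclib and -0.91 (SE 0.24, adjusted p = 0.0021) with palbociclib. For ZR-75-1, OAS3 gave -1.63 (SE 0.22, adjusted p = 2.2e-08) with abemaciclib and -0.47 (SE 0.19, adjusted p = 0.063) with palbociclib. The call with abemaciclib in CAMA-1 depended on DMSO replicate 1, without which the value was -0.62 (adjusted p = 0.066).

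ISG20, an exonuclease, rose with palbociclib in CAMA-1 and fell with abemaciclib in ZR-75-1. ISG20 was at 10.8, 9.68 and 9.39 CPM with DMSO in CAMA-1, at 12.1, 9.84 and 10.9 with abemaciclib and at 11.8, 15.3 and 22.7 with palbociclib. ISG20 in ZR-75-1 was at 21.5, 17.1 and 18.6 CPM with DMSO, at 10.6, 14.9 and 8.65 with abemaciclib and at 18.7, 19.6 and 23.5 with palbociclib. Palbociclib replicate 3 was the highest CAMA-1 library, and the abemaciclib libraries were the lowest in ZR-75-1. The log2 fold change with palbociclib in CAMA-1 was 0.68 (SE 0.25, adjusted p = 0.025), and it was 0.41 (adjusted p = 0.25) without palbociclib replicate 3, 0.67 and 0.63 without DMSO replicates 2 and 3, and 0.69 (adjusted p = 0.052) by DESeq2. With abemaciclib in ZR-75-1 it was -0.74 (SE 0.23, adjusted p = 0.0086), a call lost without DMSO replicate 1 (-0.64) or abemaciclib replicate 3 (-0.59).

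OAS2, another oligoadenylate synthetase, was named after its values were seen, since its mean count lay under the minimum for naming. In ZR-75-1 it read 0.652, 0.611 and 1.03 CPM with DMSO, 3.31, 3.46 and 2.75 with abemaciclib and 4.19, 6.08 and 2.93 with palbociclib. The DMSO libraries held at most 3 counts. Against that floor the mean with abemaciclib was at least 3.25-fold higher and the mean with palbociclib at least 4.51-fold higher. OAS2 passed the filter on low counts only through its treated libraries, so being tested already required it to be higher with drug and its test is not given as support. The abemaciclib call was lost without DMSO replicate 2, and with 10 or fewer counts in each abemaciclib library the size is imprecise.

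EIF2AK2, which encodes the double-stranded RNA-activated kinase PKR, was the most abundant RNA-binding effector and was not called in any comparison with DMSO. It was at 101 ± 4.38, 114 ± 9.63 and 109 ± 13.9 CPM (SD, n = 3) with DMSO, abemaciclib and palbociclib in CAMA-1, and at 37.5 ± 1.74, 39.6 ± 3.44 and 35.2 ± 4.39 in ZR-75-1. IFIT1, which binds RNA lacking cap methylation, was too low to test. It read 0.318, 0 and 0 CPM with DMSO in CAMA-1, 2.11, 2.57 and 1.25 with abemaciclib and 1.20, 0 and 0.678 with palbociclib. The abemaciclib libraries were the highest, and with no filter on low counts IFIT1 was called there (adjusted p = 0.013), against DMSO libraries at or under 1 count. In ZR-75-1 IFIT1 read 0.652, 0 and 1.38 CPM with DMSO, 0, 0 and 0 with abemaciclib and 0.559, 0.338 and 0.293 with palbociclib. OAS1 in ZR-75-1 read 0, 1.22 and 0 CPM with DMSO, 0.992, 0.692 and 1.97 with abemaciclib and 3.91, 0 and 1.47 with palbociclib, with no separation of the groups.

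Of the membrane-bound and other effectors, BST2 and IFITM2 carried most of the counts and had small changes. BST2 (tetherin), which holds budding virus at the cell surface, was at 129.9, 142 and 131 CPM with DMSO in CAMA-1, at 200.3, 195 and 193 with abemaciclib and at 162, 153 and 153 with palbociclib. BST2 in ZR-75-1 was at 164, 148 and 153 CPM with DMSO, at 208, 228 and 191 with abemaciclib and at 198, 191 and 194 with palbociclib. Treated libraries lay above DMSO in both lines. BST2 gave in CAMA-1 a log2 fold change of 0.52 (SE 0.08, adjusted p = 1.1e-06) with abemaciclib and 0.19 (SE 0.08, adjusted p = 0.063) with palbociclib, the latter called without DMSO replicate 2 (0.23, adjusted p = 0.043). For ZR-75-1, BST2 gave 0.43 (SE 0.08, adjusted p = 3.0e-05) with abemaciclib and 0.33 (SE 0.08, adjusted p = 0.0016) with palbociclib.

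IFITM2, which blocks viral fusion with endosomes, was at 362, 414 and 344 CPM with DMSO in CAMA-1, at 469, 436 and 429 with abemaciclib and at 477, 534 and 495 with palbociclib. IFITM2 in ZR-75-1 was at 72.4, 81.6 and 68.1 CPM with DMSO, at 65.8, 82.0 and 73.9 with abemaciclib and at 100.1, 85.5 and 106 with palbociclib. All treated CAMA-1 libraries lay above DMSO, and in ZR-75-1 the palbociclib libraries did. IFITM2 had in CAMA-1 a log2 fold change of 0.22 (SE 0.07, adjusted p = 0.011) with abemaciclib and 0.40 (SE 0.07, adjusted p = 1.4e-05) with palbociclib, and the former call was lost without DMSO replicate 1 (0.20) or 3 (0.16) or abemaciclib replicate 1 (0.19). For ZR-75-1, IFITM2 gave -0.01 (adjusted p = 0.94) with abemaciclib and 0.39 (SE 0.11, adjusted p = 0.0046) with palbociclib. IFITM2 is similar in sequence to IFITM3 and, less closely, to IFITM1, so the split of reads between these genes is uncertain. IFITM3, tested in CAMA-1 only, was called with palbociclib only without DMSO replicate 2 (1.69, against 0.97 with it). It passed the filter on low counts there only with its treated libraries, so its test is not given as support.

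The dynamin-like GTPase MX1 was too low to test, with 0, 0 and 0.916 CPM with DMSO in CAMA-1, 2.64, 0.428 and 2.80 with abemaciclib and 0.240, 3.40 and 0.678 with palbociclib. The groups overlapped, and with no filter on low counts the abemaciclib comparison was called (adjusted p = 0.048). MX1 had at most 3 counts in each ZR-75-1 library. SAMD9, tested in ZR-75-1 only, was at 4.37 ± 1.53, 7.76 ± 2.00 and 5.64 ± 1.65 CPM and was not called.

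The ISG15 conjugation genes gave a call in ZR-75-1 only, for TRIM25. ISG15 itself was at 5.73, 5.34 and 4.12 CPM with DMSO in CAMA-1, at 7.65, 8.56 and 5.92 with abemaciclib and at 5.76, 8.23 and 6.78 with palbociclib. The treated libraries lay above DMSO, palbociclib replicate 1 by very little, and the log2 fold changes of 0.51 (SE 0.34, adjusted p = 0.24) and 0.43 (SE 0.34, adjusted p = 0.34) did not pass the test. In ZR-75-1 ISG15 was too low to test, at 0.978, 1.53 and 0 CPM with DMSO, 0.992, 0.346 and 0 with abemaciclib and 0.559, 1.69 and 0.587 with palbociclib. UBE2L6, the conjugating enzyme for ISG15, was at 38.1 ± 5.33, 43.5 ± 9.95 and 41.5 ± 1.51 CPM in CAMA-1 (SD, n = 3), and USP18, which removes ISG15, at 8.39 ± 0.953, 6.01 ± 2.48 and 5.83 ± 0.897, neither called.

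TRIM25, a ubiquitin ligase that activates RIG-I, was at 87.7, 94.7 and 80.5 CPM with DMSO in ZR-75-1, at 159, 151 and 129.7 with abemaciclib and at 119.9, 104 and 133 with palbociclib. All treated libraries lay above DMSO. TRIM25 gave a log2 fold change of 0.73 (SE 0.10, adjusted p = 2.4e-08) with abemaciclib and 0.44 (SE 0.10, adjusted p = 0.00061) with palbociclib. The CAMA-1 values of 0.15 with abemaciclib (SE 0.10, adjusted p = 0.26) and 0.06 with palbociclib (SE 0.10, adjusted p = 0.70) were not called. Exons of TRIM25 overlap those of C17orf67 on its strand and of DGKE on the other. The plot of normalised counts by library gives 12 of these genes side by side.

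**Figure D3:**
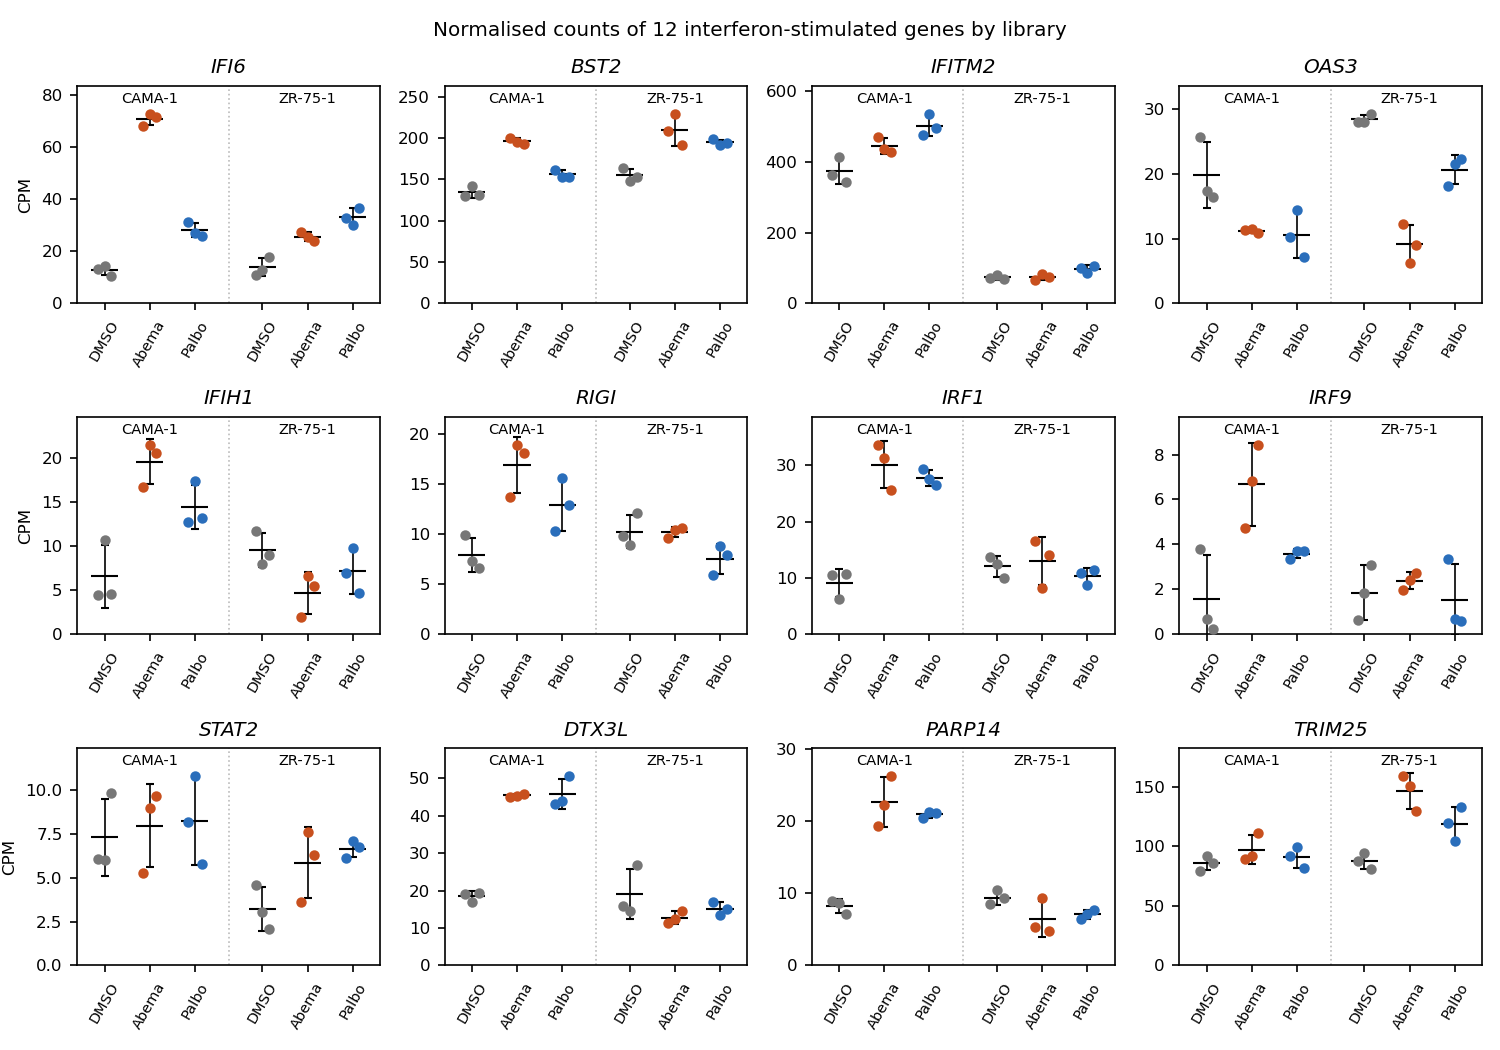
Normalised counts (CPM, vertical axis) of 12 members in each library, by line and treatment, with points for libraries, horizontal bars for the mean of 3 libraries and error bars for the SD. IFI6 is highest with abemaciclib in CAMA-1 (mean 70.9 CPM) and with palbociclib in ZR-75-1 (mean 33.2 CPM), and OAS3 is below DMSO in all treated libraries.

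The upstream genes of the pathway were examined in a list of 31 genes that are not members. All 10 interferon ligands in it (IFNA1, IFNA2, IFNB1, IFNE, IFNK, IFNW1, IFNL1, IFNL2, IFNL3 and IFNG) had 0 counts in all 18 libraries, so each was at or under the floor of detection. In CAMA-1, 15 of the 31 genes could be tested, and 8 were higher with abemaciclib and 7 with palbociclib, the others not called, where 20.3% and 18.4% of all genes were higher. In ZR-75-1, 13 were tested, and 4 and 3 were higher, the others not called, where 17.9% and 14.5% of all genes were higher. The median log2 fold changes of the genes tested with abemaciclib and palbociclib were 0.58 and 0.52 for CAMA-1, and 0.26 and 0.16 for ZR-75-1, beside medians over all genes of 0.01, 0.00, -0.00 and -0.01.

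JAK1, a kinase of type I, II and III interferon receptors, was higher with both drugs in both lines. JAK1 was at 15.6, 22.0 and 16.3 CPM with DMSO in CAMA-1, at 39.8, 35.1 and 36.1 with abemaciclib and at 34.5, 38.3 and 32.9 with palbociclib. JAK1 in ZR-75-1 was at 57.7, 58.6 and 57.1 CPM with DMSO, at 155, 157 and 158 with abemaciclib and at 177, 167 and 133 with palbociclib. The groups were well apart in each line, with log2 fold changes for CAMA-1 of 1.03 and 0.95, and for ZR-75-1 of 1.43 and 1.45 (SE 0.10 to 0.16, largest adjusted p = 6.7e-06). In CAMA-1 the kinases JAK2 (0.58 and 0.62) and TYK2 (0.80 and 0.89) and the feedback inhibitor SOCS3 (1.19 and 1.24) also rose with both drugs. So did the adaptor TICAM1 (0.90 and 0.78) and the receptor subunit IFNGR2 (1.05 and 0.52). DHX58, a regulator of the RNA sensors, is also counted as higher with both drugs (1.61 and 1.74). It read 0.687 to 3.82 CPM with DMSO and passed the filter on low counts only through its treated libraries, so its test is not given as support. In ZR-75-1 MAVS, the mitochondrial adaptor of RIG-I and MDA5, rose by 0.77 and 0.53 and TICAM1 by 0.38 and 0.36.

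The drugs were compared with each other at the same dose and time. In CAMA-1, 2 of 26 members were higher with abemaciclib than with palbociclib and 0 were lower, where 0.796% and 1.53% of all genes were. At an unadjusted p under 0.05, edgeR had 2 members lower, and DESeq2 gave 2 higher and 0 lower. IFI6 was higher by a log2 difference of 1.32 (SE 0.14, adjusted p = 3.6e-09) and BST2 by 0.33 (SE 0.08, adjusted p = 0.012). The BST2 call was lost when either abemaciclib replicate 1 or 2 or palbociclib replicate 2 or 3 was left out (0.32, 0.33, 0.32 and 0.32). For the other members the interval of the difference allows a gap, such as -0.10 to 0.85 for RIGI and -0.06 to 0.91 for IFIH1, and was narrower for DTX3L (-0.28 to 0.26).

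In ZR-75-1, 1 of 21 members was higher with abemaciclib than with palbociclib and 3 were lower, where 5.23% and 7.94% of all genes were. TRIM25 was higher by 0.30 (SE 0.10, adjusted p = 0.032), with groups that overlapped, and by DESeq2 it was not called (adjusted p = 0.065). It was also lost without abemaciclib replicate 1 or 2 (0.23 and 0.29) or palbociclib replicate 2 (0.22). OAS3 was lower by -1.17 (SE 0.23, adjusted p = 0.00015), ISG20 by -0.85 (SE 0.23, adjusted p = 0.0064) and IFITM2 by -0.40 (SE 0.11, adjusted p = 0.0080). ISG20 was lost without abemaciclib replicate 3 (-0.69) or palbociclib replicate 3 (-0.74), and IFITM2 without abemaciclib replicate 1 (-0.32) or palbociclib replicate 3 (-0.33). SP110 was called only without palbociclib replicate 2 (-0.54, adjusted p = 0.015, against -0.34 and 0.16 with it). IFI6 had a difference of -0.38 (SE 0.18, adjusted p = 0.17) in this line. The change of the IFI6 difference from CAMA-1 to ZR-75-1 was itself -1.69 (SE 0.22, adjusted p = 4.3e-08), in a comparison added after the values had been seen. In it 2 members, IFI6 and OAS3, were lower in ZR-75-1 and 0 higher, where 1.77% and 1.03% of all genes were, with 0 higher at an unadjusted p under 0.05 and by DESeq2.

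Responses were compared between the lines in one fit of all 18 libraries, with 28 members and 11987 genes tested. For abemaciclib, the response in ZR-75-1 was lower than in CAMA-1 for 7 members and higher for 1, where 10.0% and 8.19% of all genes were. For palbociclib it was lower for 7 and higher for 0, against 10.3% and 10.0%. DESeq2 gave 6 and 0, and edgeR had 1 higher at an unadjusted p under 0.05. The median difference of the members was -0.89 for abemaciclib and -0.48 for palbociclib, beside -0.03 and -0.02 over all genes. These medians include 7 members tested within CAMA-1 only and 2 within ZR-75-1 only, whose differences rest on low counts in the other line. PARP14, DTX3L, RIGI, IFIH1, IRF1 and SP110 responded less in ZR-75-1 for both drugs, of which SP110 with palbociclib was lost in 18 of 25 alternative settings and RIGI with abemaciclib in 10. DDX60L is counted among the 7 for palbociclib. In CAMA-1 it passed the filter on low counts only with its treated libraries, so its call is not given as support. For IFI6 the difference was -1.60 (SE 0.26, adjusted p = 2.0e-06) with abemaciclib and 0.09 (SE 0.26, adjusted p = 0.86) with palbociclib. IFIH1 had the largest difference with abemaciclib among those called, -2.63 (SE 0.46, adjusted p = 1.4e-05). The plot of fold changes by line shows the values of both lines side by side.

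**Figure D4:**
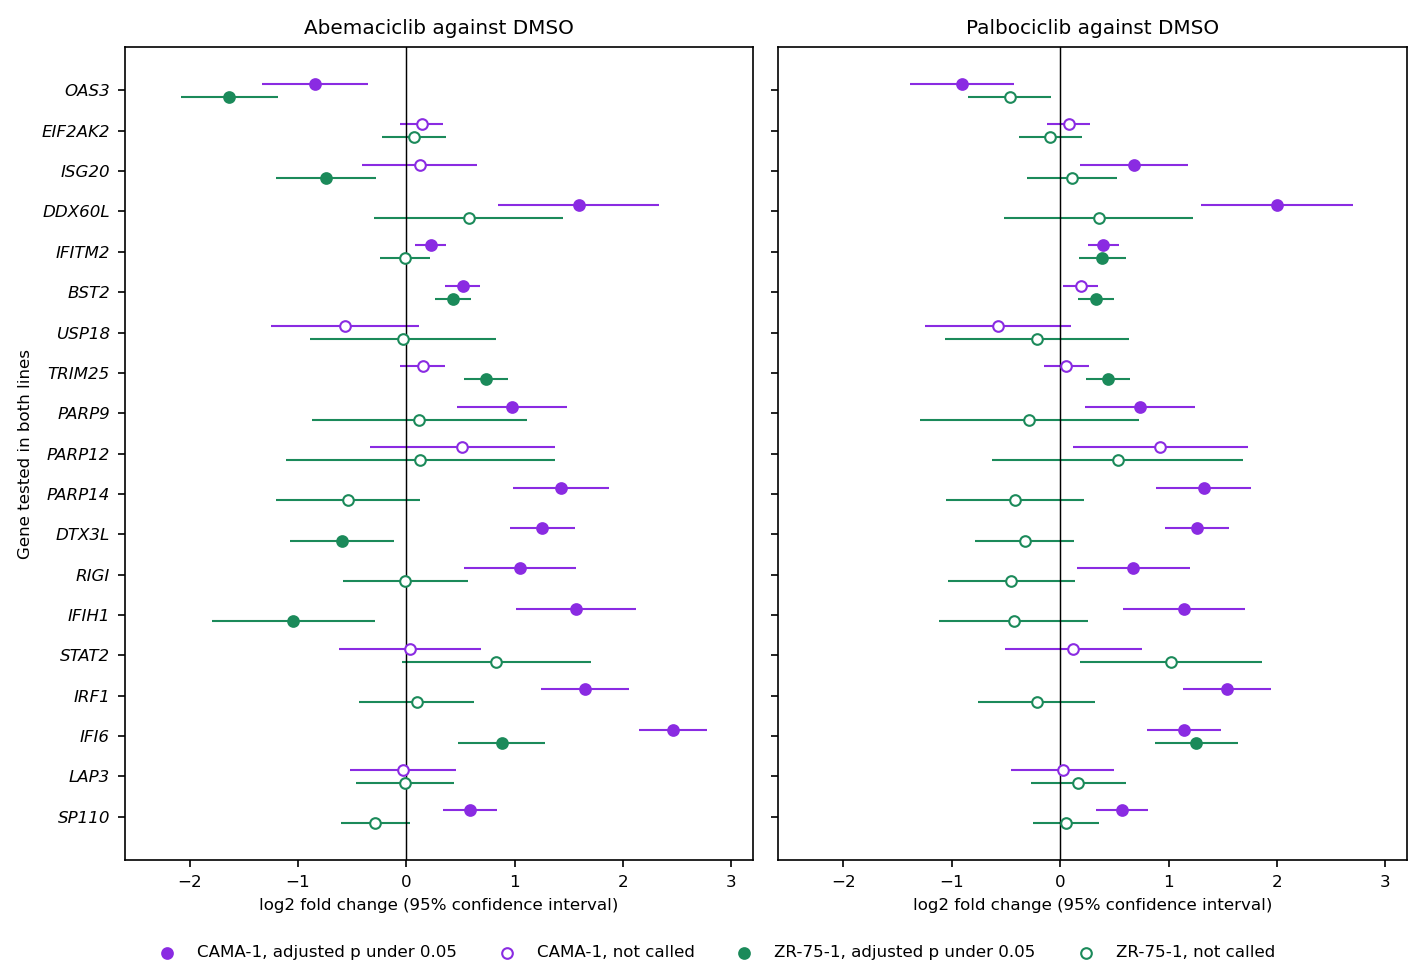
Log2 fold change against DMSO (horizontal axis, with 95% confidence interval) of the 19 members tested in both lines, for abemaciclib and palbociclib, with filled points for an adjusted p under 0.05. PARP14, DTX3L, IFIH1 and IRF1 lie above 1 in CAMA-1 and at or below 0.10 in ZR-75-1 with both drugs, whereas IFI6 lies to the right of 0 in both lines.

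The DMSO levels of the lines were compared in the same fit. In DMSO libraries, 9 of 28 members tested were lower in ZR-75-1 than in CAMA-1 and 5 were higher, where 29.8% and 31.5% of all genes were. The share lower was near that of all genes and the share higher was below it. UBE2L6 was at 33.1, 43.7 and 37.6 CPM in CAMA-1 and at 0.652, 1.22 and 0.688 in ZR-75-1, a log2 difference of -5.40. IFITM2 (-2.33), ISG15 (-2.49), EIF2AK2 (-1.44), PARP9 (-1.37) and STAT2 (-1.19, not called without CAMA-1 DMSO replicate 3) were also lower. With ZR-75-1 DMSO at or under 3 counts, IRF7 was at least 11.0-fold lower there, IFI35 at least 6.29-fold and IFITM3 at least 3.55-fold. These 3 genes, UBE2L6 and ISG15, and SAMD9 and OAS2 below, passed the filter on low counts only through the line or treatment where they are high. They are counted among the 9 and 5, but their tests are not given as support. In the other direction SAMD9 was at least 4.96-fold higher in ZR-75-1, ISG20 higher by 0.94 (SE 0.24, adjusted p = 0.00053), and OAS3 and BST2 were also called. OAS2 is counted among the 5, but both its DMSO groups were at or under 3 counts, and nothing is read from it. BST2 (0.21) was lost in 14 of 25 alternative settings and OAS3 (0.53) without DMSO replicate 2 or 3 of either line (0.36 to 0.51). Among members that responded differently in the lines, IFI6, IFIH1, IRF1, DTX3L, PARP14 and RIGI had log2 differences in DMSO level between 0.03 and 0.58. None was called, although IFIH1 was called without CAMA-1 DMSO replicate 2 (1.02, adjusted p = 0.015). SP110 and TRIM25, which also responded differently, were not called in DMSO level either.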

How the data were processed

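The authors trimmed adapters with BBDuk, aligned reads to hg38 with STAR (2.7.5b) and deposited raw read counts per gene from featureCounts (2.0.1), under an earlier GENCODE release than the annotation used here for positions. Kit names differed between sources, and strand, multi-mapping and molecular identifiers are not given in the sources used here, so floors cover counting error only. Groups came from the sample labels.

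Each line (9 libraries) was fitted in R 4.3.3 with edgeR 4.0.16 (filterByExpr, TMM scaling, quasi-likelihood test, Benjamini-Hochberg over all genes tested, called under 0.05). One fit of all 18 libraries tested differences between lines, and gave the CPM scaling. The fitting code was tested on simulated data. Alternatives were other scalings, other low-count filters, DESeq2 1.42.0, omission of mitochondrial genes, a replicate block, and each library left out. One comparison of drug differences between lines was added after values were seen.

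The members and lists were chosen with earlier results of these data known, and 1 upstream gene is not reported here. Values in every library were given for members whose mean in a line reached 10 counts, called there against DMSO and among the 10 largest changes, and for 10 fixed genes (ISG15, IFI6, IFI27, IFIT1, MX1, OAS1, STAT2, IRF1, IRF7 and IRF9). Other per-library values were chosen after they were seen. Same-numbered libraries did not deviate together (correlations -0.080 to 0.025 in CAMA-1, -0.027 to 0.0044 in ZR-75-1), so numbers were not taken as pairs.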

Additional observations from a re-analysis of the deposited data

Results flagged for a closer look

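Some responses to a drug differed between the lines by the test of that difference in the fit of all 18 libraries (edgeR, adjusted p), given here on the log2 scale, with CAMA-1 subtracted from ZR-75-1. With abemaciclib the differences were -2.63 for IFIH1 (SE 0.46, adjusted p = 1.4e-05), -1.99 for PARP14 (4.6e-05), -1.87 for DTX3L (2.3e-07), -1.60 for IFI6 (2.0e-06), -1.58 for IRF1 (0.00026), -1.08 for RIGI (0.035), -0.90 for SP110 (0.0010) and 0.56 for TRIM25 (0.0043). With palbociclib they were -1.78 for IRF1 (SE 0.33, adjusted p = 3.4e-05), -1.77 for PARP14 (0.00017), -1.61 for DTX3L (2.3e-06), -1.60 for IFIH1 (0.0059), -1.15 for RIGI (0.025) and -0.54 for SP110 (0.048). DDX60L was also called, at -1.67. In CAMA-1 it passed the filter on low counts only with its treated libraries, so this call is not given as support.

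The calls of smallest margin rested on single libraries. RIGI with abemaciclib ranged from -1.10 to -0.90 over the 7 libraries whose omission ended its call, and with palbociclib from -1.08 to -0.96 over 5. DDX60L ranged from -1.67 to -1.29 over 7 such libraries, and SP110 with palbociclib from -0.58 to -0.33 over 14. With IRF9, leaving out CAMA-1 DMSO replicate 1 made the difference a call for abemaciclib (-3.48) and for palbociclib (-3.19). IRF9 was too low to test in ZR-75-1 and passed the filter on low counts only through CAMA-1, so these calls are not given as support.

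The gap between abemaciclib and palbociclib itself differed between the lines for IFI6 (-1.69, SE 0.22, adjusted p = 4.3e-08) and OAS3 (-1.23, SE 0.35, adjusted p = 0.038). The OAS3 call was lost on omission of any of 9 of the 18 libraries, with values from -1.23 to -1.01.

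Among upstream genes, the response to abemaciclib differed by -1.47 for SOCS3, -0.54 for TICAM1 (adjusted p = 0.036) and 0.55 for MAVS (0.0023). For palbociclib the differences were -2.53 for SOCS3, -0.58 for JAK2 (adjusted p = 0.041) and 0.39 for MAVS (0.039). SOCS3 had at most 12 counts in each ZR-75-1 library and was too low to test in that line. It passed the filter on low counts only through CAMA-1, so its calls with both drugs are not given as support. The causes of the differences between the lines were not tested.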

How the results depend on the processing

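No value tabled for a called gene changed direction under the alternatives run. With 1 library left out, members called higher and lower against DMSO ranged from 12 to 13 and 0 to 2 for abemaciclib in CAMA-1, 8 to 12 and 1 to 1 for palbociclib in CAMA-1, 3 to 4 and 2 to 4 for abemaciclib in ZR-75-1, and 5 to 6 and 0 to 0 for palbociclib in ZR-75-1. Abemaciclib against palbociclib gave 1 to 2 higher in CAMA-1, and 0 to 1 higher and 1 to 4 lower in ZR-75-1. Differences between lines gave 1 to 1 higher and 6 to 9 lower for abemaciclib, 0 to 1 and 4 to 7 for palbociclib, 3 to 5 and 8 to 9 for DMSO levels, and 1 to 2 lower for the gap between drugs. DESeq2 gave 0 higher for abemaciclib against palbociclib in ZR-75-1. Omission of mitochondrial genes gave 1 higher, TRIM25 (0.40, adjusted p = 0.047), for the line difference with palbociclib. With the replicate block, which the data did not show to pair libraries, the counts were 13, 1, 12, 1, 4, 3, 5 and 0 in the order above, DTX3L (-0.57, adjusted p = 0.052) being the loss in ZR-75-1, and genes called in CAMA-1 with abemaciclib went from 4457 to 4358.

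With no filter on low counts the median log2 fold change of the members with abemaciclib and palbociclib was 0.98 and 0.82 for CAMA-1, while for ZR-75-1 it was -0.00 and -0.08, where the signs differ from those of the filtered fit. One fit of all libraries also called BST2 in CAMA-1 (0.22, adjusted p = 0.031) and STAT2 in ZR-75-1 (1.03, adjusted p = 0.048) with palbociclib, and OAS2 (adjusted p = 0.013) and SAMD9 (adjusted p = 0.032) in CAMA-1 with abemaciclib, where both had 0 counts in all DMSO libraries and passed the filter on low counts through ZR-75-1. At these depths members with few counts could not be tested, which limits any statement on the 21 of the 49 tested in neither line. Statements that compare the lines are also limited for the 7 tested in CAMA-1 only and the 2 tested in ZR-75-1 only.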
